A study of Mus musculus with 16 samples.

Results

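The genes of the fibrillar collagens I, III and V were described in Eln+/+ and Eln+/- mice, in the aortic valve and in the ascending part of the aorta. The members were Col1a1, Col1a2, Col3a1, Col5a1, Col5a2 and Col5a3. They were taken as the probe sets to which the platform annotation gives exactly 1 gene symbol, that symbol being one of these names. This gave 14 probe sets for the 6 genes, out of 45037 probe sets tested and 18193 genes with a probe set. Col1a2 and Col5a1 had 3 probe sets each and the other genes had 2. Probe sets of 1 gene were read on the same arrays, so counts over the 14 are not counts of separate genes. All mice were 30 days old, and the labels name no treatment. Each tissue was taken from both genotypes, which makes 4 groups, with 4 arrays each. Eln+/+ mice carry both intact alleles of Eln, the gene of elastin, and Eln+/- mice carry 1. The valve specimens held cusp, annulus and root. Each array held the RNA of 1 specimen from 1 animal, amplified from a small amount. The labels give no strain and no sex, and they do not tie an aorta to a valve of the same mouse.

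Fibrillar collagens are triple helices that assemble outside the cell into the tension-bearing fibrils of connective tissue. Collagen I is built from the products of Col1a1 and Col1a2, and collagen III from the product of Col3a1 alone. Collagen V, built mostly from the products of Col5a1 and Col5a2, sits inside collagen I fibrils and helps to start them and to set their width, while the alpha 3 chain of Col5a3 occurs in a less common form of the trimer. In the aortic wall these fibrils lie among the elastic sheets and in the outer coat, where smooth muscle cells and fibroblasts make them. In the valve they form the load-bearing layer of the cusps and the fibrous annulus. Human variants in COL3A1 and COL5A1 cause vascular and classical Ehlers-Danlos syndrome.

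The stretches before the gene starts are shown because the 6 genes are compared below as genes that may or may not move together. The RefSeq promoter table held 4 of the 6 genes, in the build GRCm38.p6. Each line gives the 150 bases before the annotated start, read 5′ to 3′ on the strand of the gene. Capitals mark matches on either strand to the CCAAT box, searched as CCAAT, to the TATA box, searched as TATAAA, and to the GC box, searched as GGGCGG. The stretch of Col1a2 is chr6:4505468-4505617 on the plus strand, that of Col3a1 is chr1:45311388-45311537 on the plus strand, that of Col5a1 is chr2:27886275-27886424 on the plus strand and that of Col5a3 is chr9:20815068-20815217 on the minus strand.
Col1a2: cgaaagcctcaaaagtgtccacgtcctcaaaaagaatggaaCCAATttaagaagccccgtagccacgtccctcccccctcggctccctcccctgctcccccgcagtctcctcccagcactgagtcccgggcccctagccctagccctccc
Col3a1: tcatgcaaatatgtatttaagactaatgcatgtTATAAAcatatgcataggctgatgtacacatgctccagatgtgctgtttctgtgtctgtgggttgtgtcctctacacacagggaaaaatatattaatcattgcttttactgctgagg
Col5a1: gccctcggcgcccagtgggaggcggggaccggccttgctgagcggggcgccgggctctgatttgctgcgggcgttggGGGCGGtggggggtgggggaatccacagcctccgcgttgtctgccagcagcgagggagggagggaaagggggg
Col5a3: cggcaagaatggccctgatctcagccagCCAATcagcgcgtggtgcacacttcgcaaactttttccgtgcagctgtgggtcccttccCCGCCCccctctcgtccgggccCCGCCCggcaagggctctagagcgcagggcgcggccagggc

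The 4 stretches differed in base composition and in the motifs they held. G and C made up 62.7% of the bases in Col1a2, 37.3% in Col3a1, 74.7% in Col5a1 and 68.7% in Col5a3. Over the 32851 stretches of the same length in the table the median was 54.0% and the quartiles were 46.0% and 64.0%. CCAAT, found in 24.5% of those stretches, was at positions -109 to -105 in Col1a2 and -122 to -118 in Col5a3, counting the base before the start as -1. TATAAA, found in 7.57%, was in Col3a1 at -117 to -112. GGGCGG, found in 28.6%, was in Col5a1 at -73 to -68, and in Col5a3 on the other strand at -63 to -58 and -41 to -36. No motif overlapped another in these stretches. These are matches of letters, and whether any of them works as a promoter element was not tested. In the RefSeq gene table Col3a1 and Col5a2 are neighbours, with 0 genes between them, on chromosome 1.

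Every value below is on the log2 scale and gives the signal of a probe set relative to its own median over the 16 arrays. They hold no absolute level, so the genes cannot be ranked by abundance and no gene can be called absent, and the number of arrays limits the precision. Eln was measured first as a check of the genotype. Its log2 ratio ran from 0.045 to 0.48 on the aorta Eln+/+ arrays and from -0.64 to 0.13 on the aorta Eln+/- arrays. In the valve it ran from -1.19 to 0.043 in Eln+/+ and from -2.62 to -0.81 in Eln+/-. Neither genotype difference passed (adjusted p 0.900 in the aorta and 0.395 in the valve in limma). Xist minus the mean of the Y-linked genes was positive on all 8 Eln+/- arrays, from 0.27 to 0.82, and on aorta Eln+/+ replicate 4 and valve Eln+/+ replicate 2, and lay between -11.0 and -10.6 on the other 6 Eln+/+ arrays. By these genes the positive arrays read as female and the other 6 as male, so sex was largely confounded with genotype. The mean log2 ratio of 24 heart muscle genes was 0.95 ± 0.44 (SD, n = 4) in valve Eln+/+ and 1.86 ± 0.39 (SD, n = 4) in valve Eln+/-, against -2.60 ± 1.00 and -2.62 ± 1.19 in the aorta groups. The mean of 15 smooth muscle genes was 0.29 ± 0.17 and 0.066 ± 0.55 in aorta Eln+/+ and Eln+/-, and -0.18 ± 0.40 and -0.94 ± 0.60 in valve Eln+/+ and Eln+/- (SD, n = 4).

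Valve Eln+/- replicate 3 stood apart from the other arrays. It had the lowest value of all 16 arrays in 12 of the 14 collagen probe sets, with a median over the 14 of -0.85, and the highest value in the other 2, which are the Col5a3 probe sets. On the same array the heart muscle mean was the highest of the 16, at 2.36, and the smooth muscle mean the lowest, at -1.72. Aorta Eln+/- replicate 2 also stood apart, with the lowest smooth muscle mean among the aorta arrays, at -0.75. Of the 16 arrays it had the highest mean of T cell and thymocyte genes (1.84), of macrophage genes (0.97) and of erythroid genes (1.95). Aorta Eln+/- replicate 2 and valve Eln+/- replicate 3 are the arrays left out together below, chosen after seeing the data.

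**Figure D1:**
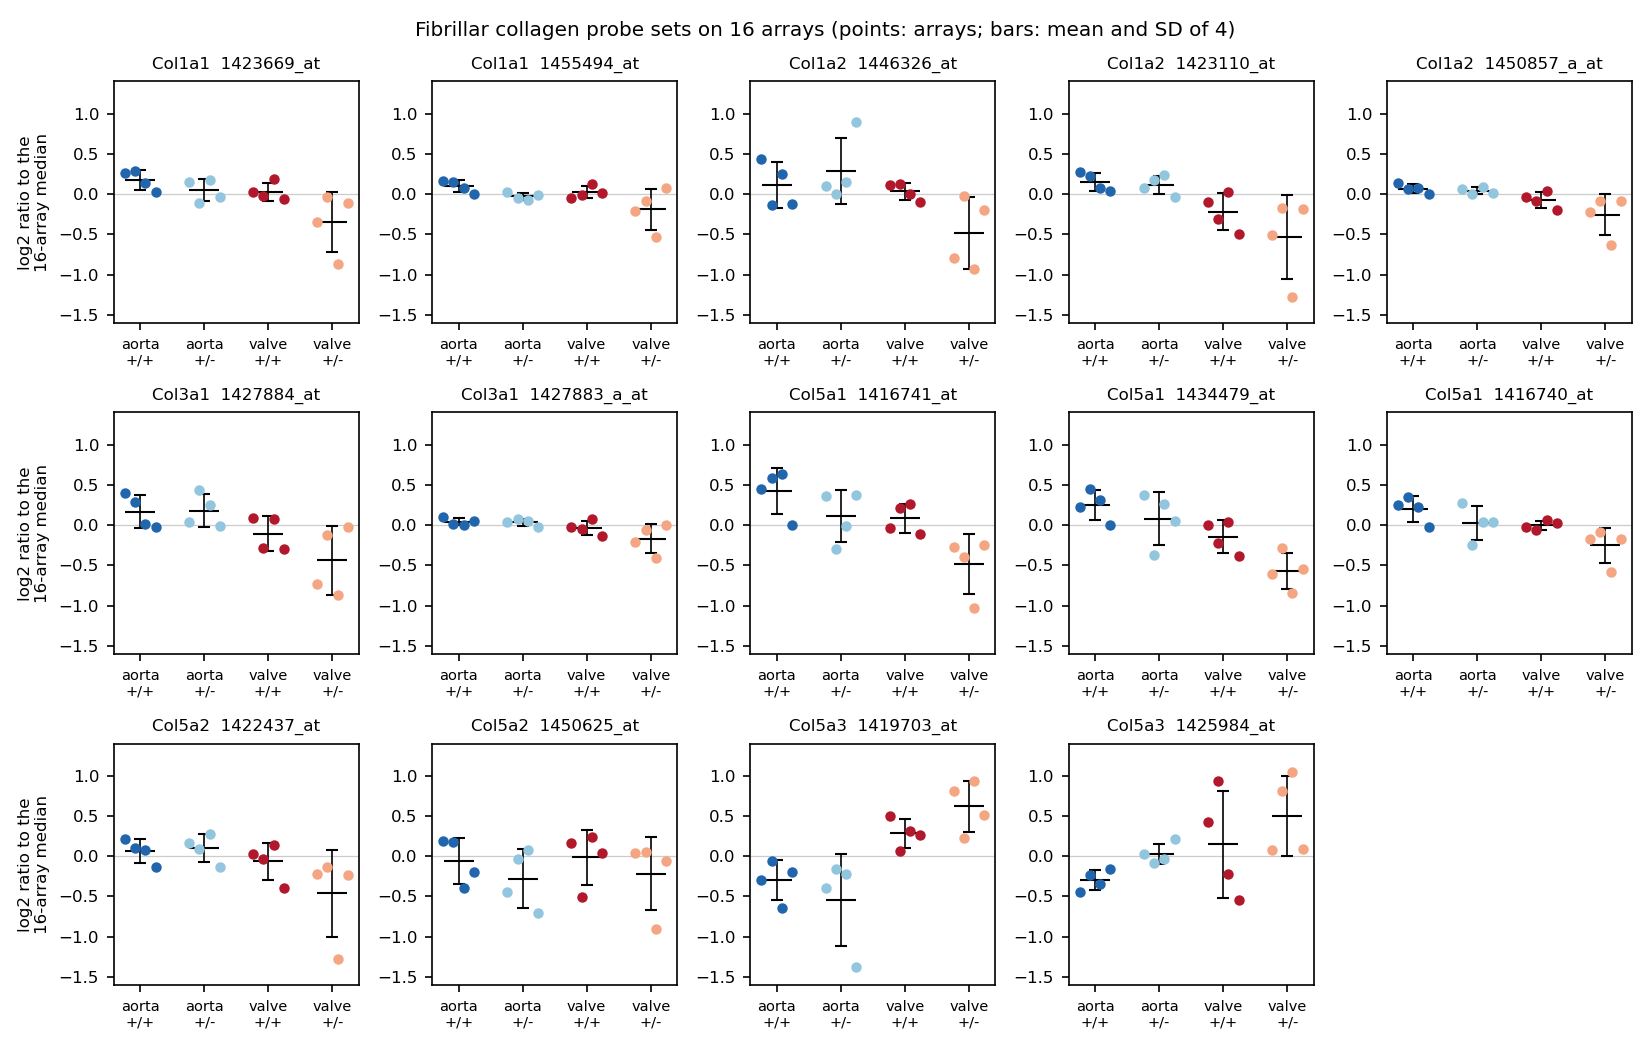
Log2 ratio to the 16-array median of each of the 14 probe sets, with 1 point per array and bars for the mean and SD of 4 arrays, by tissue and Eln genotype. Valve Eln+/- holds the lowest group mean in 11 of the 12 probe sets of Col1a1, Col1a2, Col3a1, Col5a1 and Col5a2, and both Col5a3 probe sets have their highest group mean there.

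Col1a1 encodes the alpha 1 chain of collagen I. Its more variable probe set, 1423669_at, read 0.27, 0.29, 0.14 and 0.025 on aorta Eln+/+ replicates 1 to 4 and 0.15, -0.10, 0.18 and -0.034 on aorta Eln+/-. The valve arrays read 0.029, -0.025, 0.19 and -0.063 in Eln+/+ and -0.34, -0.036, -0.86 and -0.11 in Eln+/-. Groups that differ in genotype or in tissue alone overlapped, and the low valve Eln+/- mean of -0.34 ± 0.37 (SD, n = 4) rested on replicates 1 and 3. The other probe set, 1455494_at, moved over a narrower range, with a ratio of the highest to the lowest array of 1.63 against 2.23, and the 2 deviated together within groups (r = 0.87 over 16 arrays).

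Col1a2 encodes the alpha 2 chain of collagen I. Probe set 1423110_at read 0.27, 0.22, 0.075 and 0.037 in aorta Eln+/+ and 0.078, 0.17, 0.24 and -0.031 in aorta Eln+/-. In the valve it read -0.093, -0.31, 0.031 and -0.49 in Eln+/+ and -0.51, -0.17, -1.28 and -0.18 in Eln+/-. In each genotype all 4 valve arrays lay below all 4 aorta arrays. Probe set 1450857_a_at followed it closely within groups (r = 0.97). The third Col1a2 probe set, 1446326_at, did so less (r = 0.46 with 1423110_at and 0.56 with 1450857_a_at): it read 0.11, -0.0022, 0.15 and 0.90 in aorta Eln+/- and 0.44, -0.13, 0.25 and -0.12 in aorta Eln+/+. Its valve values were 0.12, 0.12, 0.0022 and -0.097 in Eln+/+ and -0.79, -0.021, -0.93 and -0.19 in Eln+/-. Because its SD over the 16 arrays was the highest of the 3, this probe set stands for Col1a2 wherever 1 probe set per gene is used.

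Col3a1 encodes the single chain of collagen III, abundant in vessel walls. Probe set 1427884_at read 0.40, 0.29, 0.013 and -0.023 in aorta Eln+/+ and 0.044, 0.43, 0.26 and -0.013 in aorta Eln+/-. The valve arrays read 0.088, -0.28, 0.078 and -0.30 in Eln+/+ and -0.73, -0.12, -0.87 and -0.019 in Eln+/-. Both aorta groups covered nearly the same range, and all 4 valve Eln+/- arrays lay below all 4 aorta Eln+/- arrays. Probe set 1427883_a_at had the narrowest range of the 14, with a ratio of highest to lowest array of 1.42, and followed the first within groups (r = 0.86).

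Col5a1 encodes the alpha 1 chain shared by nearly all collagen V. Probe set 1416741_at read 0.45, 0.58, 0.64 and 0.0083 in aorta Eln+/+ and 0.36, -0.29, -0.0084 and 0.38 in aorta Eln+/-. In the valve it read -0.031, 0.21, 0.27 and -0.11 in Eln+/+ and -0.27, -0.40, -1.03 and -0.24 in Eln+/-. The 4 valve Eln+/- arrays were below the 4 valve Eln+/+ arrays. Probe set 1434479_at read 0.23, 0.45, 0.32 and 0.0012 in aorta Eln+/+, 0.37, -0.37, 0.26 and 0.054 in aorta Eln+/-, -0.0013, -0.22, 0.044 and -0.38 in valve Eln+/+ and -0.60, -0.29, -0.84 and -0.54 in valve Eln+/-. Aorta Eln+/- replicate 2 was the one aorta array of that group inside the valve range. The third, 1416740_at, had valve Eln+/- values from -0.58 to -0.083, below the range of -0.061 to 0.066 in valve Eln+/+. The 3 probe sets of Col5a1 correlated within groups with r between 0.70 and 0.85.

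Col5a2 encodes the alpha 2 chain of collagen V. Probe set 1422437_at read 0.21, 0.098, 0.080 and -0.14 in aorta Eln+/+ and 0.16, 0.092, 0.27 and -0.14 in aorta Eln+/-. Its valve values were 0.030, -0.031, 0.15 and -0.39 in Eln+/+ and -0.22, -0.13, -1.27 and -0.23 in Eln+/-. The valve Eln+/- mean of -0.46 ± 0.54 (SD, n = 4) was pulled by replicate 3 alone, the other arrays of the group lying within the range of valve Eln+/+. Probe set 1450625_at had all 4 groups overlapping, and the 2 Col5a2 probe sets deviated together with r = 0.72.

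Col5a3 encodes the alpha 3 chain of collagen V. Probe set 1419703_at read -0.29, -0.062, -0.64 and -0.19 in aorta Eln+/+ and -0.40, -0.16, -0.22 and -1.38 in aorta Eln+/-. In the valve it read 0.50, 0.060, 0.31 and 0.26 in Eln+/+ and 0.81, 0.22, 0.93 and 0.51 in Eln+/-. All 8 aorta arrays were negative and all 8 valve arrays positive. This probe set had the widest span of the 14, with a ratio of the highest to the lowest array of 4.97. The other Col5a3 probe set, 1425984_at, read -0.44, -0.23, -0.34 and -0.16 in aorta Eln+/+, 0.029, -0.085, -0.029 and 0.21 in aorta Eln+/-, 0.42, 0.93, -0.22 and -0.55 in valve Eln+/+ and 0.077, 0.81, 1.04 and 0.083 in valve Eln+/-. It separated the genotypes in the aorta and had both signs in valve Eln+/+. The 2 probe sets of Col5a3 did not deviate together within groups (r = -0.15), the only member for which r was negative.

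**Figure D2:**
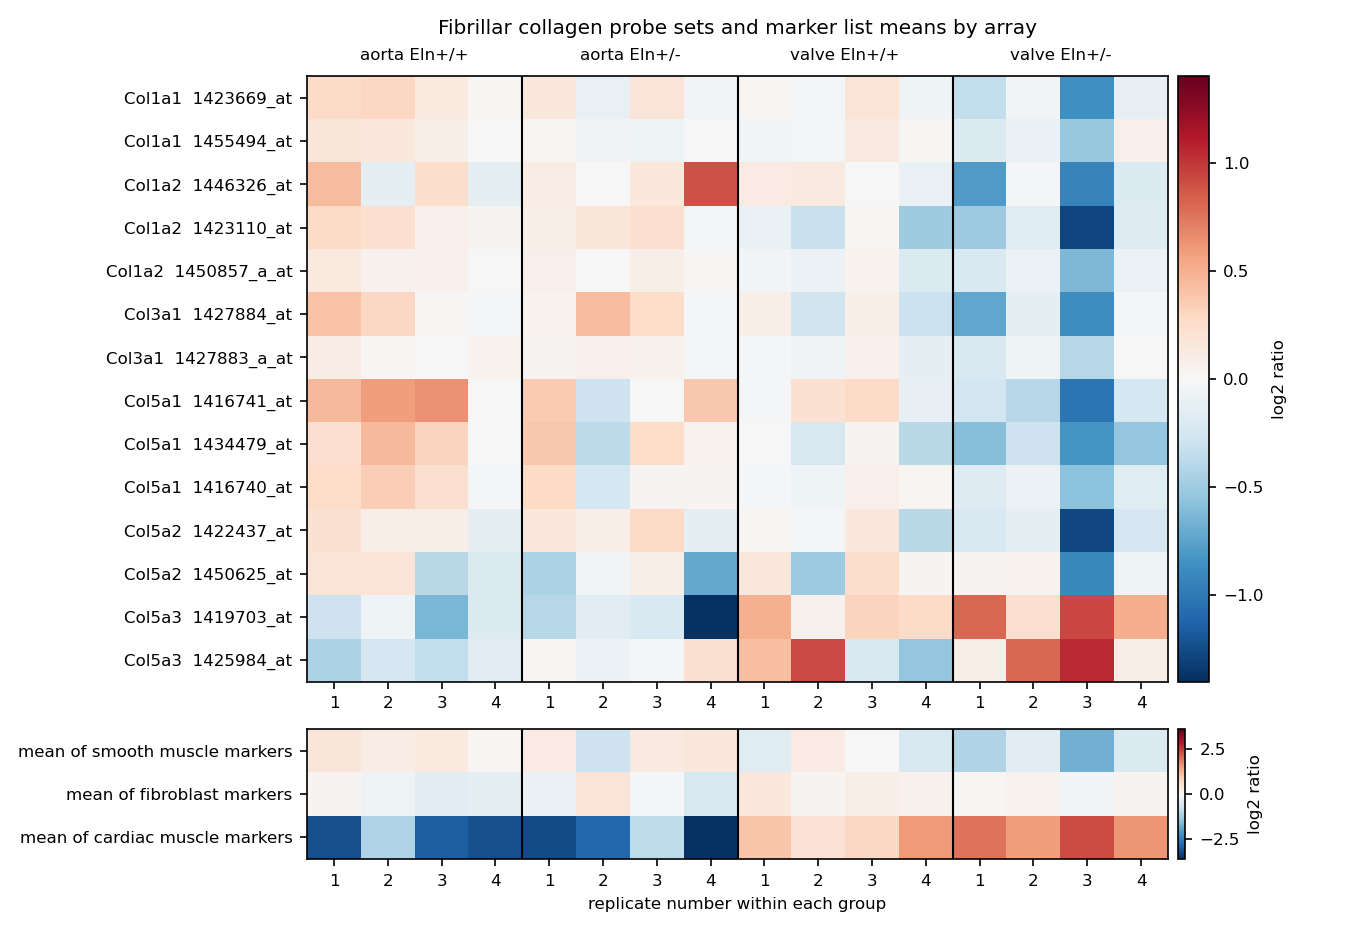
Log2 ratio of the 14 collagen probe sets on each of the 16 arrays (columns, ordered by group and replicate number), above the mean log2 ratio of 3 marker lists on the same arrays, with a colour scale for each block. The column of valve Eln+/- replicate 3 is low in the 12 probe sets outside Col5a3, low in the smooth muscle mean and high in the heart muscle mean.

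The first comparison set valve against aorta in Eln+/- mice. Col5a3 rose: its probe set 1419703_at was 1.16 ± 0.24 (SE) log2 units higher in the valve, 2.23-fold, with -0.54 ± 0.57 in the aorta and 0.62 ± 0.32 in the valve (SD, n = 4 each) and an adjusted p of 0.0101 in limma. Col5a1 fell by probe set 1434479_at, at -0.65 ± 0.18 (SE), with 0.079 ± 0.33 in the aorta and -0.57 ± 0.23 in the valve (SD, n = 4) and an adjusted p of 0.0410. At an unadjusted p under 0.05 stood 9 of the 14 and 19.0% of all. The calls of Col5a3 and Col5a1 were the 2 among the 14 probe sets. By its other probe sets neither gene passed. Col5a3 1425984_at stood at 0.47 with overlapping groups (limma adjusted p 0.394). Col5a1 stood at -0.59 by 1416741_at and at -0.28 by 1416740_at (limma adjusted p 0.111 and 0.308). Of all 45037 probe sets 5.81% passed, 3.27% having risen and 2.54% having fallen. The other 12 did not pass. In bulk tissue, fewer cells of a type and less RNA per cell cannot be told apart.

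Of the 14 probe sets 11 had lower means in the valve, with a median log2 difference of -0.34, where the median of all probe sets was -0.019 and 52.7% of them were lower. Col1a2 stood at -0.77 ± 0.23 (SE) by 1446326_at and -0.65 ± 0.21 by 1423110_at (limma adjusted p 0.0609 and 0.0802). Col3a1 stood at -0.62 ± 0.20 by 1427884_at, with an adjusted p of 0.0818. In each of these, and in Col1a2 1450857_a_at, the 4 valve arrays lay below the 4 aorta arrays. With Col5a3, 5 of the 14 probe sets had groups that did not overlap, against 11% of all probe sets. Col1a1 stood at -0.39 (adjusted p 0.198) and Col5a2 at -0.56 (adjusted p 0.158) by their more variable probe sets. Without valve Eln+/- replicate 3 these were -0.21 and -0.29. On all arrays Col1a1 1455494_at stood at -0.16 (adjusted p 0.551) and Col5a2 1450625_at at 0.062 (adjusted p 0.932). Col5a2 1450625_at and both Col5a3 probe sets were the exceptions to the lower means.

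The Col5a3 call held in all 16 fits that left out 1 array, with a difference of 0.88 to 1.29, and without both arrays that stood apart it was 1.18 (adjusted p 0.0241). In a fit to the 8 arrays of this comparison alone its adjusted p was 0.0600, past no threshold. The Col5a1 call was lost in that fit (adjusted p 0.116) and in 9 of the 16 fits with 1 array left out: aorta Eln+/+ replicates 1 and 3, aorta Eln+/- replicates 1, 3 and 4, valve Eln+/+ replicate 2 and valve Eln+/- replicates 1, 3 and 4, with adjusted p up to 0.140. It was also lost when the 3′ to 5′ signal difference of the arrays was added as a term (adjusted p 0.0617). The heart muscle list moved with this comparison, 24 of its 24 genes having risen, and of 15 smooth muscle genes 7 fell and 1 rose, while of 13 fibroblast genes 3 rose and 2 fell. Of all 18193 genes 7.06% passed in this comparison, 4.41% higher and 2.65% lower. Of 15 cartilage genes 10 rose, of 7 melanocyte genes 4, of 12 endothelial genes 3, of 12 skeletal muscle genes 3 and of 12 macrophage genes 1, with none of these having fallen, and of 11 T cell and thymocyte genes 1 fell. Their part in the collagen differences was not tested.

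In the same comparison in Eln+/+ mice 0 of the 14 probe sets passed, with 0.946% of all probe sets called. At an unadjusted p under 0.05 stood 2 of the 14 and 11.8% of all. Col5a3 1419703_at was 0.58 ± 0.24 (SE) higher in the valve, with -0.30 ± 0.25 in the aorta and 0.29 ± 0.18 in the valve (SD, n = 4) and an adjusted p of 0.355 in limma. Its groups did not overlap (exact two-sided permutation p 0.0286, the smallest that 70 assignments can give). Col1a2 1423110_at stood at -0.37 ± 0.21, also without overlap and with the same exact permutation p, and with an adjusted p of 0.509. These 2 of 14 stood against 7.68% of all probe sets without overlap. Again 11 of the 14 and 58.3% of all had lower means in the valve, the exceptions being Col5a2 1450625_at at 0.040 and both Col5a3 probe sets. The median of the 14 was -0.13 where that of all probe sets was -0.050.

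Averaged over both genotypes, which uses all 16 arrays and repeats the samples of the comparisons above, 3 of the 14 probe sets passed, against 8.04% of all. At an unadjusted p under 0.05 stood 11 of the 14 and 20.7% of all. Col5a3 1419703_at was 0.87 ± 0.17 (SE) higher in the valve, 1.83-fold (limma adjusted p 0.00478). Its 8 valve arrays lay above its 8 aorta arrays, a separation that 1.58% of all probe sets showed in either direction. Col5a1 1434479_at fell by 0.52 ± 0.12 (adjusted p 0.0166) and Col1a2 1423110_at fell by 0.51 ± 0.15 (adjusted p 0.0419). Lower means in the valve were found for 11 of the 14 and 57.9% of all, and 4.40% of all had risen and 3.64% fallen.

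The Col5a3 and Col5a1 calls of this average held in all 16 fits with 1 array left out. The Col1a2 call held in 4 of them, those without valve Eln+/+ replicate 3 or valve Eln+/- replicate 2, 3 or 4, and adjusted p reached 0.0912 in the other 12. It was lost as well after centring each array (adjusted p 0.0543), after quantile normalization (0.0501) and with Xist minus the Y-linked mean as a term (0.0507). The 3′ to 5′ term ended both the Col1a2 call (adjusted p 0.157) and the Col5a1 call (adjusted p 0.0613). The second probe set of each gene was less clear. Col5a3 1425984_at stood at 0.46 (adjusted p 0.193), Col5a1 1416741_at at -0.47 (adjusted p 0.0643), Col5a1 1416740_at at -0.24 (adjusted p 0.180) and Col1a2 1446326_at at -0.42 (adjusted p 0.138). When all probe sets of a gene were averaged before the fit, Col5a3 rose by 0.66 (adjusted p 0.00228), Col5a1 fell by 0.41 (adjusted p 0.0241) and Col1a2 fell by 0.38 (adjusted p 0.0362).

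**Figure D3:**
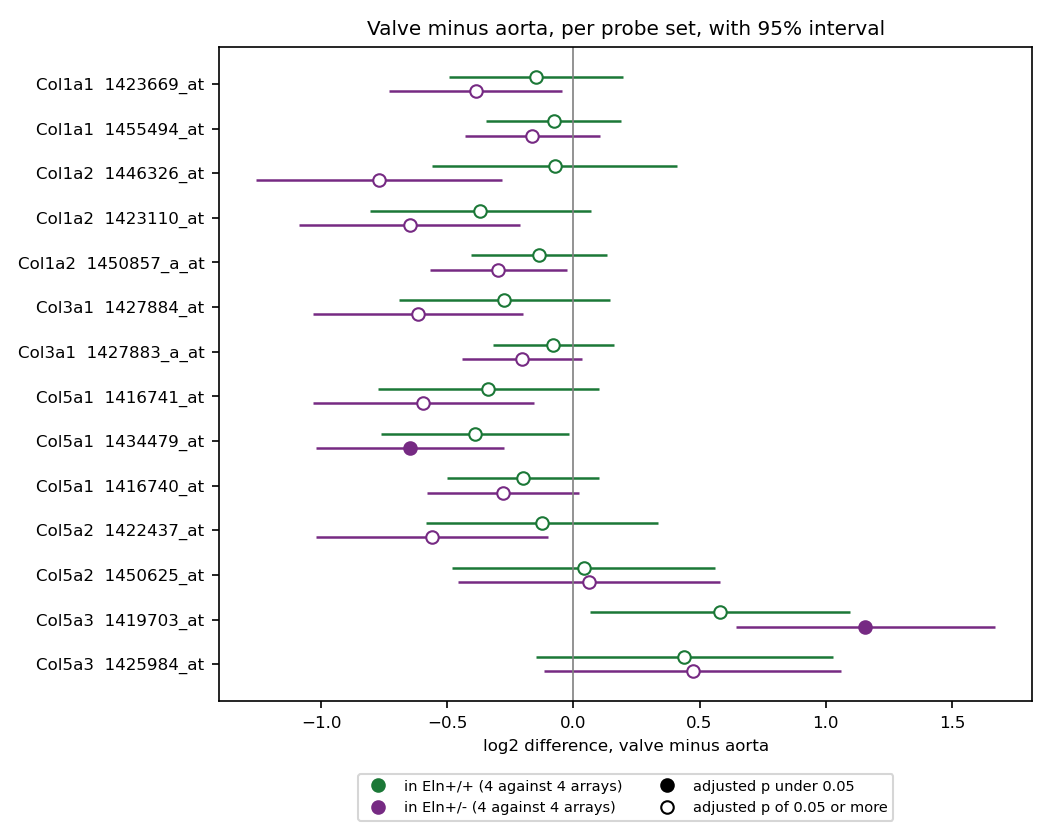
Log2 difference, valve minus aorta, of each probe set in Eln+/+ and in Eln+/- mice (4 against 4 arrays each), with the 95% interval from the limma fit and filled points where the adjusted p was under 0.05. The filled points are Col5a3 1419703_at at 1.16 and Col5a1 1434479_at at -0.65, both in Eln+/-.

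The second question was what the Eln genotype changed in the valve. No collagen probe set passed, and 0% of all probe sets did, with 8.60% at an unadjusted p under 0.05. By sign, 12 of the 14 had lower means in Eln+/-, with a median of -0.29 (all probe sets 0.011, of which 48.1% were lower), and the exceptions were both Col5a3 probe sets. At an unadjusted p under 0.05 stood 4 probe sets: Col5a1 1416741_at at -0.57 ± 0.21 (SE), Col5a1 1434479_at at -0.43 ± 0.18, Col1a2 1446326_at at -0.52 ± 0.23 and Col1a1 1423669_at at -0.37 ± 0.16. Their adjusted p in limma ran from 0.460 to 0.543. Col5a1 was the member whose groups did not overlap, in 1416741_at and in 1416740_at, where the difference was -0.25, each with an exact two-sided permutation p of 0.0286. That is 2 of 14 probe sets, against 5.04% of all.

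The remaining differences in the valve were -0.33 ± 0.20 (SE) for Col3a1 and -0.40 ± 0.22 for Col5a2 by their more variable probe sets, and 0.33 ± 0.24 for Col5a3 1419703_at. Their 95% intervals ran from -0.75 to 0.085, from -0.86 to 0.058 and from -0.18 to 0.85. For Col5a1 1416741_at the interval ran from -1.01 to -0.13.

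These values moved with valve Eln+/- replicate 3. Without it Col1a1 stood at -0.20, Col1a2 at -0.37, Col3a1 at -0.19, Col5a1 at -0.39, Col5a2 at -0.13 and Col5a3 at 0.23, each with the sign it had before. They also moved with the heart muscle mean, for which all 24 genes had higher means in valve Eln+/- than in valve Eln+/+, and with the smooth muscle list, of which 14 of 15 had lower means. Of all genes 45% had lower means in valve Eln+/-. When the 8 valve arrays were fitted with the heart muscle mean as a further term, the log2 differences were 0.066 for Col1a1, 0.012 for Col1a2, 0.14 for Col3a1, -0.066 for Col5a1, 0.32 for Col5a2 and -0.054 for Col5a3, so that all but Col5a1 changed sign. The heart muscle mean ran from 0.52 to 1.53 in valve Eln+/+ and from 1.51 to 2.36 in valve Eln+/-. It nearly separated the genotypes, so this fit can hardly tell the 2 apart, and the part of heart muscle was not tested. Xist separated the genotypes except on 2 Eln+/+ arrays, so sex and genotype were largely confounded in both tissues. A fit with Xist rests almost wholly on those 2 arrays to tell them apart. When Xist minus the Y-linked mean was added to the model of 16 arrays, the valve differences were -0.28 for Col1a1, -0.44 for Col1a2, -0.15 for Col3a1, -0.44 for Col5a1, -0.33 for Col5a2 and 0.39 for Col5a3.

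The same question was asked of the aorta. None of the 14 passed, with 0% of all probe sets called, and 0 of the 14 and 5.51% of all stood at an unadjusted p under 0.05. The median was -0.082 (all probe sets -0.018), with 10 of the 14 and 53.2% of all lower, and adjusted p ran from 0.897 to 0.998 in limma. By the most variable probe set of each gene, 3 of the 6 were lower and 3 higher, with 52.7% of all genes lower. In the valve this count was 5 lower and 1 higher, with 45.0% of all genes lower. Col5a1 1416741_at had the lowest difference, -0.31 ± 0.21 (SE), and without aorta Eln+/- replicate 2 it was -0.18. Col1a1 stood at -0.13 ± 0.16, and at -0.083 without the same array, and Col5a2 stood at 0.034 ± 0.22. Col3a1 stood at 0.010 ± 0.20, which turned to -0.020 after quantile normalization and to -0.074 without aorta Eln+/- replicate 2. Col1a2 1446326_at stood at 0.18 ± 0.23 and rested on replicate 4 of Eln+/-, without which it was -0.026, while without replicate 2 it was 0.27.

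Col5a3 gave opposite signs by its 2 probe sets in the aorta. Probe set 1425984_at was 0.32 ± 0.28 (SE) higher in Eln+/-, with -0.29 ± 0.12 in Eln+/+ and 0.031 ± 0.13 in Eln+/- (SD, n = 4). Its groups did not overlap (exact two-sided permutation p 0.0286, adjusted p 0.907 in limma), which was so for 1 of the 14 and for 2.84% of all probe sets. Probe set 1419703_at stood at -0.24 ± 0.24 with overlapping groups, at 0.038 without aorta Eln+/- replicate 4 and at -0.37 without replicate 2.

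**Figure D4:**
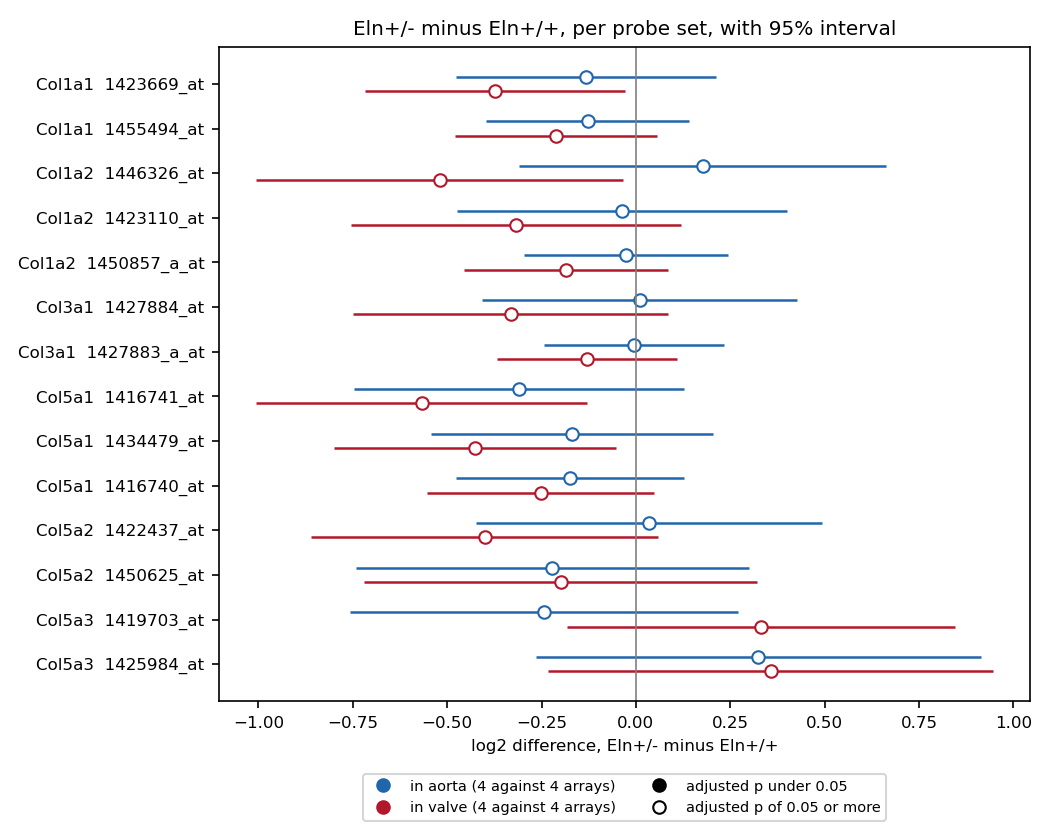
Log2 difference, Eln+/- minus Eln+/+, of each probe set in the aorta and in the valve (4 against 4 arrays each), with the 95% interval from the limma fit. No adjusted p was under 0.05, so every point is open, and the valve estimates lie below 0 in 12 of the 14 probe sets.

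The genotype difference in the valve was then set against that in the aorta. For this interaction 0 of the 14 collagen probe sets passed, as did 0% of all, with 1 of the 14 and 7.72% of all at an unadjusted p under 0.05. That one was Col1a2 1446326_at at -0.70 ± 0.32 (SE; limma adjusted p 0.646), and Col5a3 1419703_at stood at 0.58 ± 0.34 (adjusted p 0.697), or 0.29 without aorta Eln+/- replicate 4. The estimate was negative for 11 of the 14 and 47.0% of all. The difference between the tissue effects of Eln+/- and Eln+/+ mice is the same quantity. So the calls of Col5a3 and Col5a1 in Eln+/- and their absence in Eln+/+ are not shown to differ.

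Chains were also compared with each other within an array, since loading and overall RNA content then cancel. For 5 pairs the difference of the 2 log2 ratios was taken on every array and compared between groups in 4 ways, 20 exact two-sided permutation tests in all. The balance of Col5a3 against Col5a1 differed most. Their difference was -0.75, -0.64, -1.28 and -0.20 in aorta Eln+/+, -0.76, 0.13, -0.21 and -1.76 in aorta Eln+/-, 0.53, -0.15, 0.046 and 0.38 in valve Eln+/+ and 1.08, 0.62, 1.96 and 0.75 in valve Eln+/-. The 4 valve Eln+/- arrays were above those of every other group, and the aorta groups overlapped.

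In group means this balance shifted towards Col5a3 by 1.75 from aorta to valve in Eln+/-, by 0.92 from aorta to valve in Eln+/+ and by 0.90 from Eln+/+ to Eln+/- in the valve. Without valve Eln+/- replicate 3 the shift was 1.46 between tissues in Eln+/- and 0.61 between genotypes in the valve. On all arrays each of the 3 shifts had an exact permutation p of 0.0286, the smallest possible, and 0.191 after adjustment over the 20 tests, so none passed. In the aorta the genotype difference of the same balance was 0.067 (exact permutation p 0.971). With all probe sets of each gene averaged, the 3 shifts were 1.32, 0.82 and 0.76 in the order above. The aorta genotype difference was then 0.26. The other 4 pairs, Col1a2, Col3a1 and Col5a1 each against Col1a1 and Col5a2 against Col5a1, had overlapping groups in all 16 comparisons, with adjusted p of 0.483 to 0.971. The widest of these shifts was Col1a2 minus Col1a1 from aorta to valve in Eln+/-, at -0.38 (exact permutation p 0.143). It was -0.15 without aorta Eln+/- replicate 4, and without that array Col5a2 minus Col5a1 between the aorta genotypes, 0.34 on all arrays, was 0.51. These tests share arrays, and a shift within an array does not tell which of the 2 genes moved.

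**Figure D5:**
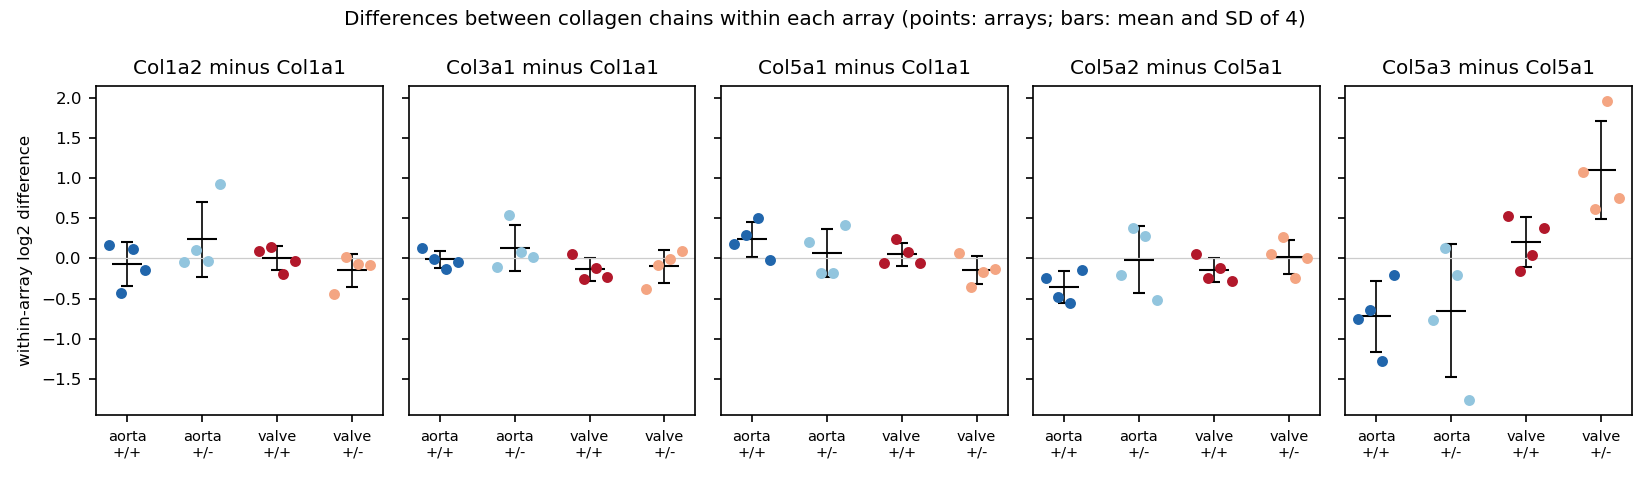
Difference between the log2 ratios of 2 collagen chains on the same array, for 5 pairs, by tissue and Eln genotype, with 1 point per array and bars for the mean and SD of 4 arrays. In the panel of Col5a3 minus Col5a1 the 4 valve Eln+/- arrays lie from 0.62 to 1.96, above the arrays of the other groups.

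How far the members deviated together within groups was described over the 16 arrays after taking out each group mean. The arrays share their amplification and tissue makeup, so r is a description. Valve Eln+/- replicate 3, the lowest array in 12 of the 14 probe sets, is among them, and r was not computed without it. Col1a1 and Col5a2 had r = 0.90, Col1a1 and Col3a1 0.71, Col1a1 and Col5a1 0.69, and Col3a1 and Col5a2, the chromosomal neighbours, 0.68. The chains of collagen I, Col1a1 and Col1a2 by 1446326_at, had r = 0.50. Col5a1 had r = 0.63 with Col5a2 and 0.20 with Col3a1. Col5a3, by 1419703_at, ran the other way against Col1a2, by 1446326_at (r = -0.84), and against the most variable probe set of Col5a1 (r = -0.54). On aorta Eln+/- replicate 4 Col1a2 1446326_at read 0.90 and Col5a3 1419703_at read -1.38. Col1a2 1446326_at had r of 0.46 and 0.56 with the other Col1a2 probe sets, which had r = 0.97 with each other. The Col5a3 probe sets had r = -0.15. The other Col1a2 probe sets did not read high on aorta Eln+/- replicate 4, at -0.031 (1423110_at) and 0.014 (1450857_a_at). On valve Eln+/- replicate 3 they did run against Col5a3 1419703_at, at -1.28 and -0.63 where it read 0.93. The r of -0.84 is therefore that of 1446326_at and is not shown for Col1a2 as a gene. No r was computed for the other probe sets of Col1a2 and Col5a3, so whether they ran opposite ways was not tested.

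For each member the 3 genes of highest r among all genes with a probe set were noted. Being the highest of 18193, these values are large by choice. They include valve Eln+/- replicate 3 and were not computed without it. Col5a2 was nearest to Col6a3, the collagen VI alpha 3 gene, at r = 0.94, then to P4hb, which encodes a subunit of prolyl 4-hydroxylase, at 0.92, and to Col1a1 at 0.90. Col3a1 was nearest to Col14a1, a fibril-associated collagen gene, at 0.94, then Grin3a at 0.86 and Snhg5 at 0.85. Col1a1 was nearest to Id4, which encodes an inhibitor of helix-loop-helix transcription factors, at 0.90, then Col5a2 at 0.90 and Nynrin at 0.89.

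Col5a1 was nearest to Kank2 at r = 0.93, Pou5f2 at 0.92 and Maml2, a co-activator gene of Notch signalling, at 0.91. Col1a2 was nearest to Stmn4 at 0.90, Rnf208 at 0.85 and Tmem254a at 0.84. Col5a3 was nearest to Kcp, which encodes a secreted modulator of BMP signalling, at 0.93, then Esam, an adhesion molecule gene of endothelium, at 0.90 and Chst1 at 0.87. The probe set used for Col1a2 here was 1446326_at.

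The other genes of collagen biosynthesis were followed from lists, each gene by its probe set of highest SD. Averaged over genotypes, 9.63% of all 18193 genes passed between valve and aorta, 5.83% having risen and 3.80% having fallen. Of the 5 other fibrillar collagen genes measured 3 rose in the valve and none fell (median 0.97). Col2a1, the gene of cartilage collagen II, rose by 2.11 ± 0.49 (SE, adjusted p 0.0136 in limma), Col11a1 by 2.02 ± 0.38 and Col11a2 by 0.97 ± 0.16, both encoding chains of collagen XI. Col24a1 at -0.0070 and Col27a1 at -0.27 did not pass. Of the 9 fibril-associated collagen genes 4 rose and none fell (median 0.46): Col9a1 by 2.93, Col9a3 by 2.66, Col12a1 by 0.99 and Col16a1 by 0.46. On the same arrays 11 of 15 genes of a cartilage list rose and none fell. That list shares genes with these collagens.

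Of the 20 genes of procollagen folding and modification 2 rose and 5 fell in the valve (median -0.19). P4ha3, a prolyl 4-hydroxylase subunit gene, rose by 1.01 ± 0.16 (SE) and Colgalt2, a collagen galactosyltransferase gene, by 1.06 ± 0.17. P4hb fell by 0.45 ± 0.11 and Tmem38b, an ion channel gene of the endoplasmic reticulum, by 0.81 ± 0.16. Serpinh1, the gene of the collagen chaperone HSP47, stood at -0.38 (adjusted p 0.0548) and Colgalt1 at -0.48 (adjusted p 0.0605). In Eln+/- mice taken alone, where 7.06% of all genes passed (4.41% higher and 2.65% lower), Plod2, which encodes a lysyl hydroxylase, fell by 1.07 (adjusted p 0.0194) and P4ha2, another prolyl 4-hydroxylase subunit gene, by 0.63 (adjusted p 0.0230).

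Of the 17 genes of procollagen export and processing 1 rose and 2 fell (median -0.096). Pcolce, which encodes an enhancer of C-propeptide removal, rose by 0.55 ± 0.15 (SE, adjusted p 0.0365), while its relative Pcolce2 fell by 0.73 ± 0.14 (adjusted p 0.00373) and the transport coat gene Sec24d fell by 0.52 ± 0.14 (adjusted p 0.0256). The crosslinking list had 4 of 5 genes fall and none rise (median -0.59). Lox, the gene of lysyl oxidase, which crosslinks both collagen and elastin, fell by 1.43 ± 0.23 (adjusted p 0.00124). Tgm2, a transglutaminase gene, fell by 0.59, and Loxl1 and Loxl3 fell by 0.50 and 0.60 with adjusted p of 0.0451 and 0.0448. Loxl4 at -0.028 did not pass. The smooth muscle list fell with these genes, 10 of 15 having fallen and 1 having risen in this average, and its part was not tested.

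Of 18 genes of fibril-binding matrix proteins 8 rose in the valve and none fell, while the other 10 did not pass (median 0.37, with 12 higher and 6 lower by sign). Comp, a matrix protein gene of cartilage and tendon, rose by 3.92 ± 0.30 (SE, adjusted p 2.89e-06 in limma), Fmod, which encodes the proteoglycan fibromodulin, by 2.31, Thbs1 by 2.44 and Thbs2 by 1.00, the last 2 encoding thrombospondins. Comp also stands in the cartilage list, of which 11 of 15 genes rose in this comparison, and the part of cartilage was not tested. Postn, the periostin gene, stood at -0.47 (adjusted p 0.0653) and Ogn at -0.45 (adjusted p 0.108). Of 10 collagen receptor genes none passed: Ddr1, a receptor kinase gene, stood at 0.41 (adjusted p 0.0522) and Itga1, an integrin gene, at -0.64 (adjusted p 0.0644). Of 13 genes of collagen degradation 2 rose and 1 fell: the protease gene Mmp3 rose by 1.27 and the inhibitor gene Timp1 by 0.89, and Mmp9 fell by 0.72.

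Between genotypes no gene of these 8 lists passed in either tissue, where 0% of all genes did. In the valve the folding list had 15 of 20 genes lower in Eln+/- (median -0.15), the crosslinking list 4 of 5 (median -0.27) and the degradation list 12 of 13 (median -0.21). Lower were also 7 of 10 receptor genes (median -0.13), 11 of 18 fibril-binding genes (median -0.13), 3 of 5 other fibrillar collagen genes (median -0.14) and 9 of 17 export genes (median -0.019), and of the fibril-associated collagen genes 3 of 9 were lower and 6 higher (median 0.099). These counts by sign stand against 45.0% of all genes lower and a median of 0.032. The genes of lowest p there included Ddr2, a collagen receptor kinase gene, at -0.53 ± 0.18 (SE), P4ha2 at -0.43 ± 0.15, Fkbp14, a collagen-folding isomerase gene, at -0.47 ± 0.18, Col27a1 at -0.74 ± 0.22, and Postn at -0.53 ± 0.21, and on the higher side Kera, which encodes the proteoglycan keratocan, at 1.57 ± 0.57 and Col9a3 at 0.96 ± 0.38, with adjusted p of 0.422 to 0.503. Lox stood at -0.70 ± 0.33 (adjusted p 0.576). In the aorta the folding list had 14 of 20 higher in Eln+/- (median 0.11), against 52.7% of all genes lower with a median of -0.016. Higher there were also 11 of 18 fibril-binding, 7 of 13 degradation, 6 of 10 receptor and 3 of 5 crosslinking genes. So were 5 of 9 fibril-associated collagen genes, 8 of 17 export genes and 2 of 5 other fibrillar collagen genes. The folding gene of lowest p in the aorta was P4ha3 at 0.86 ± 0.23 (limma adjusted p 0.867). Its groups did not overlap, which was so for 2.84% of all probe sets.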

How the data were processed

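RNA of 16 specimens, 4 per group of tissue and Eln genotype, was measured on Affymetrix whole-genome mouse arrays after amplification with a Nugen Ovation kit, per the labels' protocols. The deposited values are linear ratios of each probe set to its own median over the 16 arrays, as the values show, and RMA is named in the submitters' processing notes. A median of 1 held in 39780 of 45037 probe sets, and 5257 had a lower one. Neither depth nor absolute level can be recovered, and a genome build is not given in the sources used here.

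The log2 of the ratios was analysed without a pseudocount, since the lowest deposited ratio was 0.01. Of 45101 probe sets 64 controls were left out. The platform annotation gave 1 gene symbol to 34945 probe sets, several to 932 and none to 9160. One fit of 4 group means to all 16 arrays was made in limma 3.58.1 (R 4.3.3), with 12 residual degrees of freedom, Benjamini-Hochberg adjustment over 45037 probe sets and a threshold of 0.05. Single values were compared by exact two-sided permutation of 4 against 4 arrays, whose smallest p is 0.0286. Where 1 probe set stands for a gene it is that of highest SD over the arrays. The fit was tested on simulated data. The genes named were Eln, the members with all their probe sets, for each member the 3 genes of highest within-group r, and per list and comparison up to 4 genes past the threshold and up to 2 not past it, by lowest p.

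The members and the lists (250 names, 234 measured) were chosen with earlier results of these data known. The arrays are labelled as separate animals. Alternatives covered normalization, filters, weights, covariates for Xist, heart muscle genes and the 3′ to 5′ signal difference, and leaving out arrays.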

Additional observations from a re-analysis of the deposited data

Results flagged for a closer look

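In 56 combinations of probe set and group, 3 had 1 array far from the other 3, where chance alone flags about 1 in 20, or 2.8 in all. Col1a2 1446326_at read 0.90 on aorta Eln+/- replicate 4, the other arrays of its group lying between -0.0022 and 0.15. Col5a2 1422437_at read -1.27 on valve Eln+/- replicate 3, against -0.23 to -0.13 on the others. Col5a2 1450625_at read -0.90 on the same array, against -0.055 to 0.048. The latter 2 come from 1 gene on 1 array.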

How the results depend on the processing

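The counts of calls moved with some settings. For the valve genotype comparison all probe sets gave 1 call instead of 0 with a pseudocount of 0.05, without probe sets of median below 1, and with array weights. From aorta to valve in Eln+/+ the 426 calls became 692 after quantile normalization and 188 with the 3′ to 5′ covariate. In Eln+/- a fit of its 8 arrays gave 0 members by their leading probe sets (1 in the reported fit) and 1602 of all instead of 2615, and gene means gave 2 members. In the average over genotypes the members called rose from 1 to 2 with array weights, 2 with a replicate block, 2 without both arrays that stood apart (chosen after seeing the data) and 3 with gene means, and the 3620 calls fell to 2225 with the 3′ to 5′ covariate. Same-numbered arrays deviated with correlations of -0.15 to 0.071, so the numbers were not taken as pairs. Aorta and valve of Eln+/+ replicate 2, and those of replicate 4, also had opposite signs of Xist minus the Y-linked mean, so these are not of 1 mouse. The replicate block, which treats same-numbered arrays as pairs and so is wrong for these Eln+/+ arrays, gave Col5a1 1434479_at an adjusted p of 0.106 in Eln+/- and 0.0584 in the average, and Col1a2 1423110_at 0.0866. The 3′ to 5′ covariate gave these 3 values as 0.0617, 0.0613 and 0.157, and Col1a2 1423110_at had 0.0543 after centring, 0.0501 after quantile normalization and 0.0507 with the Xist covariate. The cause was not tested for any of these.

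With 1 array left out, calls over all probe sets ran from 0 to 1 (aorta genotype), 0 to 11 (valve genotype), 173 to 553 (tissue, Eln+/+), 1366 to 3457 (tissue, Eln+/-) and 2704 to 4750 (average), members from 1 to 3 in Eln+/- and 1 to 2 in the average, and the interaction stayed at 0. Signs turned in the aorta genotype comparison for Col3a1 (-0.020 after quantile normalization, -0.036 with array weights, -0.074 without both arrays), Col5a2 (-0.093 with gene means) and Col5a3 (0.041 with gene means), and in the valve with the heart muscle covariate (Col1a1 0.066, Col1a2 0.012, Col3a1 0.14, Col5a2 0.32, Col5a3 -0.054). They also turned for Col1a2 between tissues in Eln+/+ (0.019 with the 3′ to 5′ covariate) and for Col1a2 minus Col1a1 there (-0.080 with gene means). Leaving out 1 array gave -0.026 to 0.29 for Col1a2, -0.074 to 0.088 for Col3a1, -0.033 to 0.11 for Col5a2 and -0.37 to 0.038 for Col5a3 in the aorta, and -0.15 to 0.037 for Col1a2 between tissues in Eln+/+. For pairs of chains it gave -0.043 to 0.16 (Col1a2 minus Col1a1, tissues, Eln+/+), -0.023 to 0.14 (Col3a1 minus Col1a1, valve genotype), -0.13 to 0.17 (Col5a2 minus Col5a1, tissues, Eln+/-) and -0.19 to 0.44 (Col5a3 minus Col5a1, aorta genotype).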
